A study of Mus musculus with 2 samples.

Results

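The DNA replication and S-phase genes described here were 40 mouse genes, chosen by name for their part in licensing, firing and copying replication origins and in supplying nucleotides. They were chosen with earlier results of these data known. All 40 were among the 18724 genes of the deposited table, and all 40 were measured, that is, had a mean of at least 10 normalised counts over both libraries, as had 17183 genes in all. The RNA was that of mouse prostate luminal epithelium, separated by flow cytometry into cells with and cells without a green fluorescent label carried on histone H2B. Whether the cells without it had lost the label or never carried it is not known here. Each division dilutes the label, which therefore lasts longest in cells that seldom divide. The label-retaining group (GFP-positive) was 1 library with 50689229 gene reads, and the non-retaining group (GFP-negative) was 1 library with 48334265 gene reads. Both came from normal prostates of mice of 18 weeks, and the libraries were made from total RNA with a stranded kit. The strain, the driver of the H2B-GFP transgene, the sort markers and how many mice were pooled are not stated in the sources used here. With 1 library per group there was no replicate check and no test between groups, so every value compares these 2 libraries and every interval covers counting error only.

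Before a cell copies its DNA, the origin recognition complex marks origins and, with Cdc6 and Cdt1, loads the ring of Mcm2 to Mcm7, the core of the replicative helicase. In S phase Cdc45 and the GINS complex join the ring and open the DNA, primase and the polymerases copy it, the Pcna clamp set in place by replication factor C holds the polymerases on the template, and Fen1 and Lig1 finish the lagging strand. Many of these genes are transcribed towards S phase under E2F factors and are low in resting cells, whereas several origin recognition subunits are kept at steadier levels. Adult prostate luminal cells divide rarely.

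By the size rule, under which a gene was called when its libraries were at least 2-fold apart and the 95% counting interval excluded equality, 12 of the 40 genes were lower in the label-retaining library, 1 was higher and 27 were neither. That is 30% lower, where 19.4% of all measured genes were called lower, and 2.5% higher, where 14.5% of all measured genes were called higher. Among the 11921 measured genes whose mean lay within the range of the 40, the shares were 18.7% lower and 13.5% higher. The 12 lower genes were Orc1, Cdt1, Mcm3, Mcm4, Mcm5, Mcm6, Mcm7, Gins3, Pola1, Pcna, Rfc3 and Rrm1, and the higher one was Mcm10. The median log2 ratio (label-retaining over non-retaining normalised counts, with a pseudocount of 0.5) was -0.49, beside -0.0052 for all measured genes, and single genes ran between -2.16 (Rfc3) and 1.35 (Mcm10). The ratio was below 0 for 32 genes and above 0 for 8. For 26 the whole counting interval lay below 0, for 5 it lay above 0, and for 9 it held 0. Of all 17183 measured genes, 8632 had a ratio below 0 and 8551 above 0. The whole interval lay below 0 for 6620 of those genes, above 0 for 6566, and held 0 for 3997. Together the 40 genes took 0.0304% of the reads in label-retaining cells, against 0.0546% in non-retaining cells. Such shares amount to scaling by total reads. Under the deposited scaling the contrast was smaller, with summed normalised counts of 15363.5 against 24022.3, a log2 ratio of -0.64. The 2-fold boundary fell between Rrm1 at -1.08, the called gene nearest to it, and Orc6 at -0.94, which was not called.

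**Figure D1:**
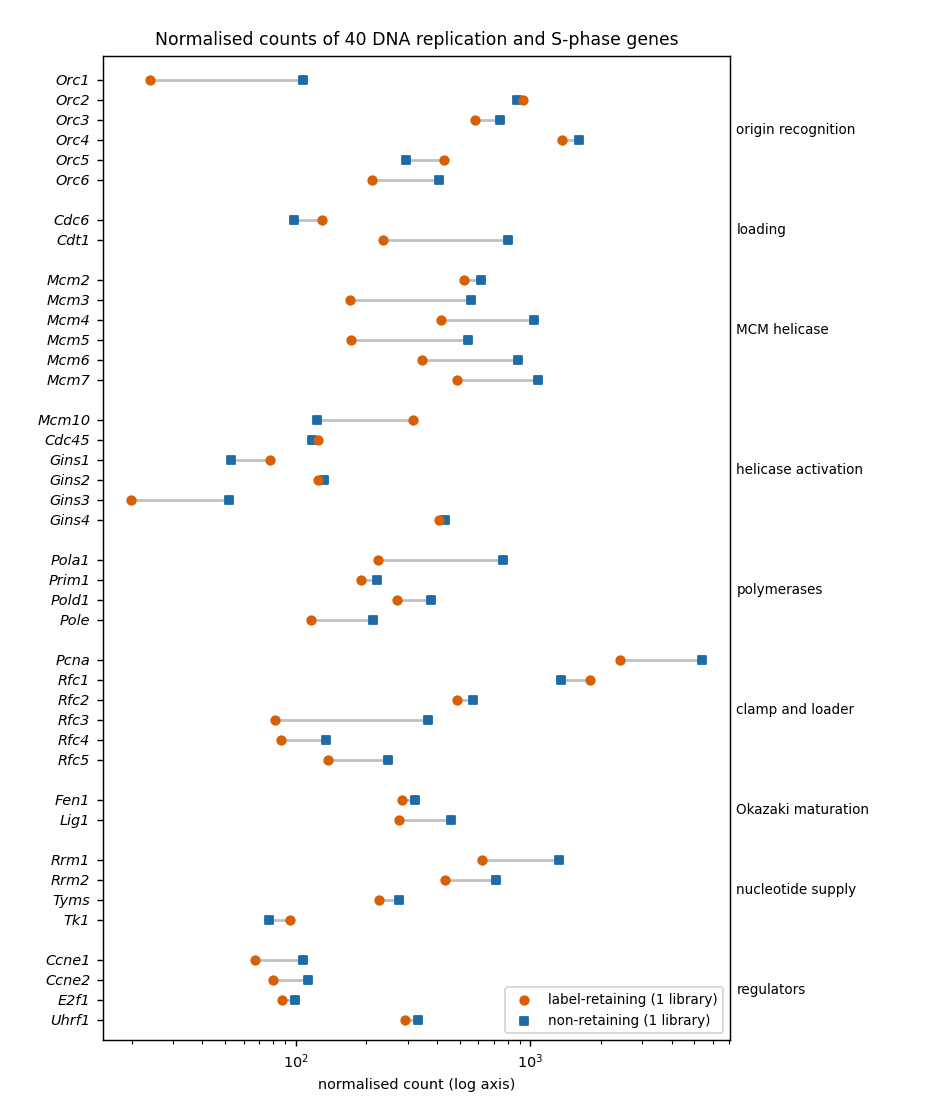
Normalised count (log axis) of each of the 40 genes in the label-retaining library (circles) and the non-retaining library (squares), grouped by role; each point is 1 library. The widest gaps are those of Orc1 (23.9 against 107), Rfc3 (81.8 against 368) and Cdt1 (236 against 806), and Mcm10 is the one gene whose circle stands far to the right of its square (315 against 124).

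The same libraries differed in RNA of other cell types. All 10 basal epithelial markers were lower in the label-retaining library, with summed normalised counts of 35986 against 355007 in the non-retaining library, and none was at 0; the basal keratin gene Krt5 had 960.0 against 26130 normalised counts and Krt14 had 2120 against 50551. Of 14 leukocyte markers, 9 were lower and 2 higher, with summed counts of 8335 against 22188. The higher ones were Cd52, with 6804 against 1965 and so most of the label-retaining sum, and Lyz2, with 317 against 155. Ptprc, the pan-leukocyte antigen CD45, had 208 against 5882, and Gzma had 0 against 2032, at least 679-fold lower against a floor of 3 reads in the label-retaining library. All 7 smooth muscle markers were lower (summed 1630 against 22203), as were 5 of 6 endothelial ones (633 against 2367). Of 6 fibroblast markers 2 were lower and 2 higher, with 4 ratios above 0 and a median log2 ratio of 0.95, while the summed counts were 15804 against 91098, most of the non-retaining sum being Dcn. Of 10 luminal markers 4 were higher and 0 lower, and the keratin genes Krt8 (147910 against 81228) and Krt18 (91825 against 58110) were present in both libraries. Fewer cells of a type and less RNA per cell cannot be told apart in such bulk samples, and the part of these cells in the replication gene differences was not tested.

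The windows around the starts of 6 of these genes show the letters that the results are set beside further on. Each is 300 bases, 250 before to 50 after the RefSeq start on GRCm38.p6, read 5′ to 3′ on the gene's strand. Capitals mark 8-letter matches, on either strand, to the E2F-type letters TTTGGCGC, TTTCCCGC, TTTCGCGC or TTTGCCGC; overlapping matches were counted separately and run together in capitals. Mcm3, Mcm5, Mcm6 and Rfc3 are shown because they were called lower and hold matches. Mcm2 and Mcm10 are shown because they belong to the same machinery, were not lower by the rule and hold no complete match. Windows that go the other way are not shown, such as Pcna and Rrm1 (lower, no match) and Cdc6 (match, not called). The Mcm10 window ends inside the letters TTTGGCGC, with only the last one missing. Whether that match is complete beyond the window's edge is not known. The windows are chr1:20820263-20820562 (minus strand) for Mcm3, chr8:75109259-75109558 (plus strand) for Mcm5, chr1:128359656-128359955 (minus strand) for Mcm6, chr5:151651159-151651458 (minus strand) for Rfc3, chr6:88898731-88899030 (minus strand) for Mcm2 and chr2:5012742-5013041 (minus strand) for Mcm10.
Mcm3: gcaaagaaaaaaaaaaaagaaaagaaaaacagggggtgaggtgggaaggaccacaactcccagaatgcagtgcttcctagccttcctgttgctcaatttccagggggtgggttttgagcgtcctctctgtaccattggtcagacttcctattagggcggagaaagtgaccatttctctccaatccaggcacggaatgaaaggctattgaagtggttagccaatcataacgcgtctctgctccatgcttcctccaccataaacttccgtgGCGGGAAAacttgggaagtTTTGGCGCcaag
Mcm5: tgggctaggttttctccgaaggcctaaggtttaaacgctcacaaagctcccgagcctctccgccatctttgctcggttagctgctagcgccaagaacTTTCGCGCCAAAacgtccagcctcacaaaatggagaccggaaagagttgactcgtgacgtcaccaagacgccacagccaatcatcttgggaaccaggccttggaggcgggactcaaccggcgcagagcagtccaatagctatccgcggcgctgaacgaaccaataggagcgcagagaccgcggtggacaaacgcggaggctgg
Mcm6: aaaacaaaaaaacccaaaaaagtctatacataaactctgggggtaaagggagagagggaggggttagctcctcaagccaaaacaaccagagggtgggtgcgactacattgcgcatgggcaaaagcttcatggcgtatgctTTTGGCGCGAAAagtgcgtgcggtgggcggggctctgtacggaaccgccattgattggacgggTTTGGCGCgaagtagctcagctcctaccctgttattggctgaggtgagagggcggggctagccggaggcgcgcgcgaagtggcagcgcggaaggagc
Rfc3: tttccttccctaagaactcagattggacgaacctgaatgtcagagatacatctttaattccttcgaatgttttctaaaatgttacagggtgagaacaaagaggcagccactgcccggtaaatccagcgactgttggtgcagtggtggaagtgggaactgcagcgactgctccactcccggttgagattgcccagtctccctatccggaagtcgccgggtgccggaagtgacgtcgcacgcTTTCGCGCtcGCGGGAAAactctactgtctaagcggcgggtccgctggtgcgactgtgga
Mcm2: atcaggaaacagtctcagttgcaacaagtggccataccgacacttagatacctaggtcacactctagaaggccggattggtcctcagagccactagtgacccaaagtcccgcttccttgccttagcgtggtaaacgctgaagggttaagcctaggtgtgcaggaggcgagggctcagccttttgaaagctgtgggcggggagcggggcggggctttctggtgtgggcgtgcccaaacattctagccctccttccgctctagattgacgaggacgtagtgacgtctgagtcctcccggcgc
Mcm10: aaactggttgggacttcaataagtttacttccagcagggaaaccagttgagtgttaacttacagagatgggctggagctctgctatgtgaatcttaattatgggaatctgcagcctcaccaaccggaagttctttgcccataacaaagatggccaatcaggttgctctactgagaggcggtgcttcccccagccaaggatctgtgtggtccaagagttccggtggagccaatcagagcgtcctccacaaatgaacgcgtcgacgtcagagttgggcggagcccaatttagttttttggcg
Mcm3 and Mcm5 hold 2 matches each, Rfc3 holds 2 and Mcm6 holds 3. The matches of Mcm3 lie after its start.

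Of the 6 genes of the origin recognition complex, 1 was lower by the size rule and 5 were not called, with a median log2 ratio of -0.30. Orc1, the large ATPase subunit (ENSMUSG00000028587.17, chromosome 4, 108579423 to 108614833, plus strand, mm10), had 23.9 normalised counts in the label-retaining library and 107 in the non-retaining library, a log2 ratio of -2.14 (95% counting interval -2.86 to -1.52). Its low counts give it one of the widest intervals among the called genes. Orc4, the most abundant of the group by count, had 1363 against 1608 (-0.24, -0.34 to -0.14), and Orc2 had 930.0 against 876. Under the deposited scaling the direction was mixed, with Orc2 at 0.09 and Orc5 at 0.54 above equality, and Orc3 at -0.36 and Orc6 at -0.94 below it. On the scale of normalised counts per kb of exon, Orc2 (241 in label-retaining, 227 in non-retaining) and Orc4 (183 and 216) had the highest levels in both libraries. Orc1 had the lowest, 6.88 per kb in label-retaining and 30.9 in non-retaining cells, so that the highest and lowest subunits were 35.0-fold apart in the label-retaining library and 7.36-fold apart in the non-retaining one.

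Of the 2 loading factors 1 was lower and 1 was not called. Cdt1, which brings the helicase ring to origins and is destroyed once S phase starts (ENSMUSG00000006585.2, chromosome 8, 122568015 to 122573554, plus strand), had 236 normalised counts in label-retaining and 806 in non-retaining cells (-1.77, -1.99 to -1.57), a 3.42-fold lower level. Cdc6, the ATPase that acts beside it, had 129.7 in label-retaining and 98.2 in non-retaining cells (0.40, 0.02 to 0.78), and was not called. Their counting intervals did not overlap. The side of equality on which Cdc6 lies depends on the scaling: scaled on Krt8 and Krt18, described at the end, 39 of the 40 ratios lay below 0, all but that of Mcm10.

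The MCM helicase group stood lowest of the role groups, with 5 of 6 genes lower by the rule, all 6 ratios below 0 and a median log2 ratio of -1.33. Mcm3 (ENSMUSG00000041859.10, chromosome 1, 20802968 to 20820312, minus strand) had 169.6 normalised counts in label-retaining and 561 in non-retaining cells, a 3.30-fold lower level (-1.72, -1.98 to -1.48). Mcm5 had 173 against 545, a 3.15-fold lower level (-1.66, -1.91 to -1.41). Mcm3 and Mcm5, which sit side by side in the ring, were thus the lowest pair. Mcm6 had 344 against 883 (-1.36, -1.54 to -1.18), and Mcm4 had 416 against 1033 (-1.31, -1.48 to -1.15). Mcm7, the most abundant of the group by its mean count over both libraries, had 489 against 1074 (-1.13, -1.29 to -0.98), and its exons overlap the microRNA genes Mir25 and Mir93 and parts of Ap4m1 and Cops6. Mcm2 was the exception, with 521 normalised counts in label-retaining and 617 in non-retaining cells (-0.24, -0.41 to -0.08). Its interval did not overlap that of any of the other 5. Since the ring holds 1 copy of each protein, the levels per exon length are of interest: they ran from 43.2 to 116 normalised counts per kb in label-retaining and from 88.7 to 288 in non-retaining cells. Mcm2 was the lowest of the 6 in the non-retaining library (88.7 per kb) whereas in the label-retaining one (74.9 per kb) Mcm5 (43.2 per kb), Mcm3 (45.2 per kb) and Mcm6 (73.8 per kb) lay below it. These ranks rest on the union of annotated exons, 6956 bases for Mcm2 and 3589 to 4666 for the other 5. By count, Mcm2 (617) lay above Mcm3 (561) and Mcm5 (545) in the non-retaining library.

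**Figure D2:**
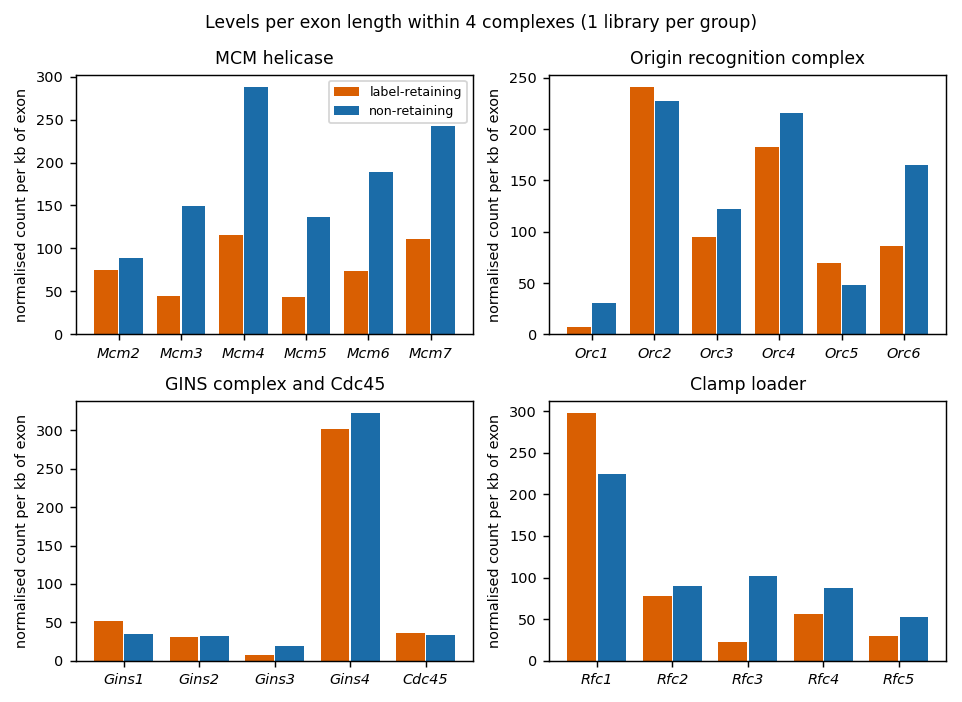
Levels as normalised counts per kb of exon (y axes, each starting at 0) of the subunits of 4 complexes, with label-retaining bars left of non-retaining bars and 1 library per group. Of the MCM genes Mcm2 differs least between the libraries (74.9 against 88.7 per kb), and Orc1, Gins3 and Rfc3 have the lowest label-retaining bar of their complexes.

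Of the 6 genes that activate the helicase, 1 was higher, 1 lower and 4 neither, and the median log2 ratio was 0.0037. Mcm10, a DNA-binding firing factor that is not part of the ring despite its name (ENSMUSG00000026669.13, chromosome 2, 4989714 to 5012791, minus strand), had 315 normalised counts in label-retaining and 124 in non-retaining cells. It was 2.54-fold higher (1.35, 1.06 to 1.65), and 9.53% of all measured genes had a ratio as high. Gins3, a GINS subunit, had 20.0 against 51.9 (-1.36, -2.19 to -0.62), from 20 and 57 reads, the fewest of any called member. The other subunits did not follow it: Gins1 was at 0.56 (77.8 against 52.8), Gins2 at -0.08 (125 against 132) and Gins4, the most abundant, at -0.09 (407 against 435; interval -0.29 to 0.10). Cdc45, their partner on the helicase, had 125 against 117 (0.09), with an interval that held 0. Gins2 shares 2758 bases of exon with Gse1 on the other strand. Fen1 shares 1909 with Gm10143 and Orc2 shares 1150 with Nif3l1, also on the other strand. Exons of 15 members overlap a gene on the other strand, and these 3 share the most bases. Whether the authors counted by strand is not given, so the reads of these 3 genes are uncertain, as are those of the other members with such overlaps.

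All 4 genes of the polymerases and primase had ratios below 0, and 1 of them was lower by the rule. Pola1, the catalytic subunit of polymerase alpha, which starts each new strand, had 225 normalised counts in label-retaining and 767 in non-retaining cells (-1.77, -1.99 to -1.56). Its primase partner Prim1 had 191 against 222, a ratio of -0.22 whose interval, -0.50 to 0.06, held 0. The lagging strand polymerase gene Pold1 was at -0.48 (271 against 378) and the leading strand polymerase gene Pole at -0.88 (116 against 213). Pola1 thus stood apart from both main copying polymerases, whose intervals it did not overlap.

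Of the clamp and its loader, 2 genes were lower and 4 neither, with a median of -0.74. Pcna, the sliding clamp and the most abundant of all 40 genes by count and per exon length (ENSMUSG00000027342.13, chromosome 2, 132249162 to 132253314, minus strand), had 2424 normalised counts in label-retaining and 5372 in non-retaining cells (-1.15, -1.22 to -1.08). Its high count makes its interval the narrowest of the module. Rfc3, a small clamp loader subunit (ENSMUSG00000033970.14, chromosome 5, 151642756 to 151651242, minus strand), had 81.8 against 368 (-2.16, -2.53 to -1.82). That 4.47-fold lower level was the lowest ratio of the module, and 8.76% of all measured genes had a ratio as low. Rfc1, the large subunit, had 1791 against 1348 (0.41, 0.31 to 0.51), above equality under the deposited scaling but not under that on Krt8 and Krt18. Rfc2 was at -0.22, Rfc4 at -0.63 and Rfc5 at -0.84, none of them called. Per kb of exon the 5 loader genes were 13.1-fold apart in the label-retaining library, Rfc1 highest and Rfc3 lowest, and 4.23-fold apart in the non-retaining one, Rfc1 highest and Rfc5 lowest.

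**Figure D3:**
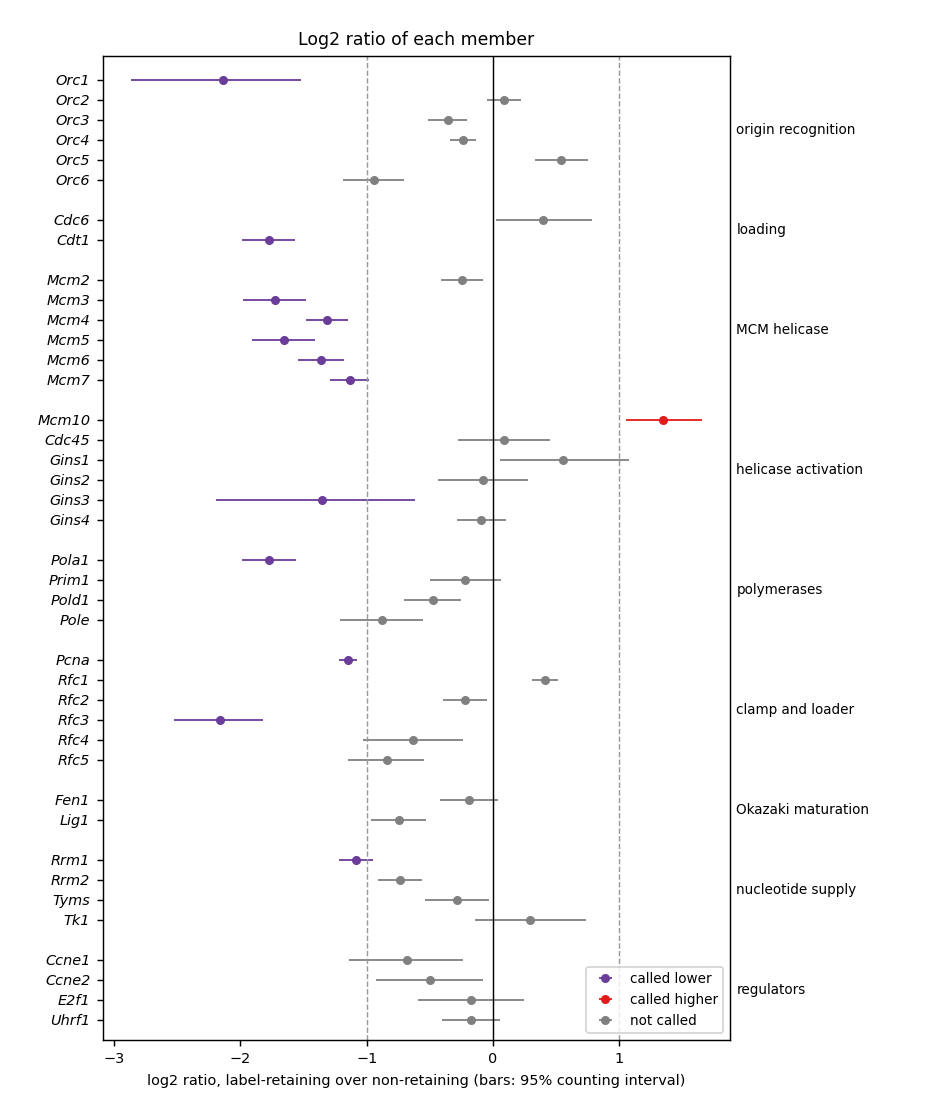
Log2 ratio (x axis, label-retaining over non-retaining) of each of the 40 genes by role, with bars for the 95% counting interval and dashed lines at 2-fold; colours give the size-rule call. The 12 called lower lie left of the lower dashed line, 5 of them in the MCM group, and Mcm10 at 1.35 alone lies right of the upper one.

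Genes that finish or feed DNA synthesis had medians of -0.47 (Okazaki fragment genes) and -0.51 (nucleotide supply). Of the 2 Okazaki fragment genes, neither was called: the ligase gene Lig1 had 274 against 461 normalised counts (-0.75, -0.97 to -0.53), and the flap nuclease gene Fen1 had 284 against 324 (-0.19), with an interval that held 0. Of 4 nucleotide supply genes 1 was lower. Rrm1, the large subunit of ribonucleotide reductase, had 626 in label-retaining and 1327 in non-retaining cells (-1.08, -1.22 to -0.95). Its partner Rrm2, the subunit whose protein comes and goes with S phase, had 431 against 718 (-0.73, -0.91 to -0.56), under 2-fold. Thymidylate synthase, Tyms, was at -0.28 (227 against 276) and thymidine kinase, Tk1, at 0.29 (94.8 against 77.3), the interval of Tk1 holding 0.

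None of the 4 regulators was called, and all 4 ratios were below 0, with a median of -0.34. E2f1, a transcription factor of the G1 to S step, had 87.8 normalised counts in label-retaining and 99.2 in non-retaining cells (-0.17, -0.60 to 0.24). Uhrf1, which keeps DNA methylation on copied strands and is the most abundant of the 4, had 293 against 331 (-0.17, -0.40 to 0.05). The cyclin E genes Ccne1 (66.9 against 107, -0.68) and Ccne2 (79.8 against 113, -0.50) lay below equality with intervals that excluded 0.

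Promoter letters were set beside these ratios. RefSeq promoter windows were found for 33 of the 40 genes, Mcm4, Gins1, Gins2, Gins4, Pole, Rfc2 and Ccne2 being without one. The windows of E2f1, Cdc6 and Mcm7, and the windows of Lig1 and Uhrf1 that hold a match, lie wholly inside the gene's GENCODE bounds. Such windows may not hold the promoter in use, which was not tested. At least 1 of the E2F-type matches spelled out above lay in a window of 14 of the 33 genes, or 42.4%, whereas 2.27% of all 32851 promoter windows and 2.61% of all 27025 genes with a window held one. Those totals include genes that were not measured. Many genes of the module are known to be under E2F factors, so its higher share comes with the choice of genes and is no finding of these libraries. Of measured genes with a window, 514 held a match and 11304 did not. Among the 11 lower genes with a window, 9 held a match (Orc1, Cdt1, Mcm3, Mcm5, Mcm6, Mcm7, Gins3, Pola1 and Rfc3), and Pcna and Rrm1 did not. Among the 21 genes that were not called, 5 held one (Cdc6, Lig1, Orc3, Pold1 and Uhrf1). Mcm10, the higher gene, held none that was complete within its window and was counted as without a match. The median log2 ratio was -1.36 over the 14 genes with a match, between -2.16 and 0.40, and -0.24 over the 19 without, between -1.15 and 1.35. The letters CCAAT, on either strand, were in a window of 10 of the 11 lower genes, 9 of the 21 not called and 41.1% of all genes with a window. Beyond the module, genes with CCAAT were not called lower more often. Of the other replication genes, 8 of 30 with CCAAT (26.7%) and 7 of 24 without (29.2%) were lower, with medians of -0.69 and -0.55. For all measured genes with a window the shares were 17.6% of 4986 and 19.5% of 6832, with medians of 0.063 and -0.00096. Outside the module the share called lower was no higher with the E2F-type letters than without, although medians were lower with them. Over the 69 other replication genes, 5 of 18 measured genes with a match and 10 of 36 without were called lower, which is 27.8% of each, with median log2 ratios of -0.76 and -0.44. Over all measured genes with a window 17.7% of 514 with a match were called lower and 18.8% of 11304 without, with median log2 ratios of -0.12 and 0.04. Without the genes of both replication lists the shares were 16.0% of 482 and 18.7% of 11249, and the medians -0.10 and 0.04. A match describes the letters of a window and says nothing of binding, and the number of genes in the module is small.

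**Figure D4:**
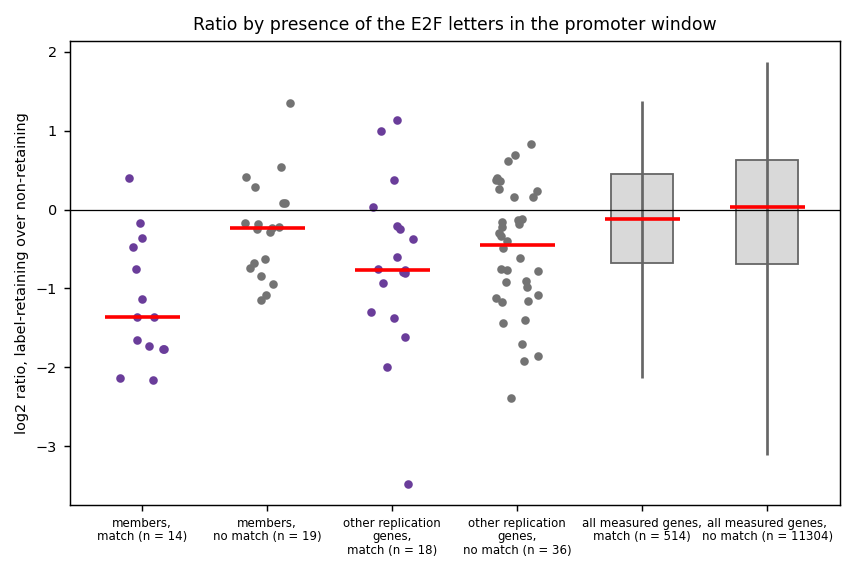
Log2 ratio (y axis, label-retaining over non-retaining) by whether a promoter window holds the E2F-type letters, with 1 point per gene for the module and for other replication genes, and boxes (quartiles, with lines from the 5th to the 95th percentile) for all measured genes; red lines are medians. The module's genes with a match have a median of -1.36 and those without -0.24, while the boxes of all measured genes have medians of -0.12 and 0.04.

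A second list, also chosen with earlier results of these data known, held 69 other genes of replication and S phase, of which 68 were measured. In it 17 genes (25%) were lower by the size rule, beside 19.4% of all measured genes, 2 (2.94%) were higher, beside 14.5%, and 49 were neither. The median log2 ratio was -0.48, close in value to the -0.49 of the 40 genes. The groups within it are small, so that their counts are to be read against the same 19.4%. Histone deposition and maintenance genes had 4 lower of 8, all 8 ratios below 0 and a median of -1.07. Among them Nasp, a histone chaperone, had 1293 normalised counts in label-retaining and 3410 in non-retaining cells (-1.40, -1.49 to -1.31). Of 9 genes of licensing control and firing 3 were lower and all 9 ratios were below 0, with Dbf4, the activator of the Cdc7 kinase, at 297 against 808 (-1.44). The fork group had 3 lower of 8 measured, among them Atad5, which unloads Pcna (53.9 against 216, -2.00), and Timeless, of the fork protection complex (57.9 against 189, -1.70). The polymerase and primase partners had a median of 0.20, and 1 of 8 was lower, the small polymerase epsilon subunit gene Pole4 (657 against 1617, -1.30). Dtl, which targets Cdt1 for destruction, had 56.9 against 175 (-1.61).

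The lowest gene of that list was Cdca7, a chromatin factor induced towards S phase, with 46.9 normalised counts in label-retaining and 528 in non-retaining cells (-3.48, -3.95 to -3.06). Blm, a DNA helicase of the RecQ family, had 78.8 against 287 (-1.86). The 2 higher genes were Cdc25a, the phosphatase that activates Cdk2, with 1816 against 823 (1.14, 1.03 to 1.26), and Exo1, an exonuclease of repair and recombination, with 115 against 48.2 (1.24, 0.77 to 1.75). Of 19 genes of G2 and mitosis, 2 were lower, 1 higher and 16 neither, beside 19.4% lower and 14.5% higher over all measured genes. Their median was -0.22, with summed normalised counts of 2127 in label-retaining and 2726 in non-retaining cells. Mki67, the proliferation marker, was not called, at 438 against 728 (-0.73).

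**Figure D5:**
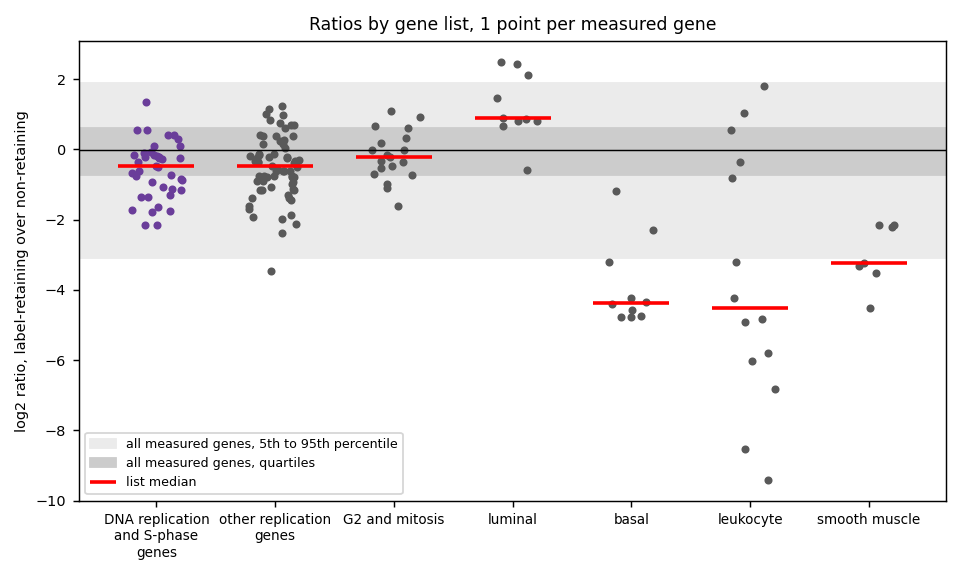
Log2 ratio (y axis, label-retaining over non-retaining) of each measured gene of 7 lists, with red lines for list medians and grey bands for the quartiles and the 5th to 95th percentiles of all 17183 measured genes. The module (-0.49) and the other replication genes (-0.48) have medians inside the quartile band, and the basal (-4.39) and leukocyte (-4.53) medians lie far below it. Gzma, with 0 label-retaining reads, is drawn at its floor of -9.41. The fibroblast list (median 0.95) and the endothelial list (median -1.37) are not drawn.

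The choice of scaling bears on the counts. Scaled by total reads, 15 of the 40 genes were lower and 1 higher, where 23.2% of all measured genes were lower and 11.2% higher. Scaled so that Krt8 and Krt18 together were equal in both libraries, which moves every log2 ratio down by 0.78, 26 of the 40 genes were lower and 0 higher, where 41.4% of all measured genes were then lower and 5.06% higher. Mcm10 was then at 0.57 and no longer called. At a threshold of 1.5-fold in place of 2-fold, 19 genes were lower and 1 higher, where 26.8% and 24.2% of all measured genes were.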

How the data were processed

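RNA-seq of 1 label-retaining and 1 non-retaining library was analysed from the authors' deposited table. Its values are a normalised signal: gene read counts that had been divided by 1 size factor per library, as the deposited values themselves show. Every value was a whole multiple of 1 step per column (100% within 1e-06 of a whole number), which gave size factors of 1.00 for label-retaining and 1.10 for non-retaining and the underlying reads. Per the submitters' processing notes the tools were DESeq 1.16.0, HTSeq 0.6.0, Bowtie2 2.1.0, TopHat2 2.0.10 and CASAVA 1.8.2, on mm10, with no role stated for any. Annotation, strand handling and the treatment of shared reads are not given in the sources used. Exons of 15 of the 40 genes overlap a gene on the other strand and those of 2 a gene on the same strand, among them 2 of the 13 called genes (Orc1 and Mcm7).

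Symbols, positions and exon lengths (union of exons) came from GENCODE M21 on GRCm38 (mm10), matched by gene identifier without its version; 18634 identifiers had a symbol and 90 had none. Promoter sequences came from RefSeq on GRCm38.p6. The log2 ratio used a pseudocount of 0.5 normalised counts, and its exact (Clopper-Pearson) 95% interval came from the share of reads in the label-retaining library. Genes with a mean under 10 normalised counts (1541) were left out of calls. A gene was called at a log2 ratio of at least 1 or at most -1 with an interval excluding 0. Ratios at low counts are pulled towards 0 by the pseudocount. The calculation was tested on counts simulated with counting error alone, the error that the intervals assume. Such a test says nothing of variation between replicate libraries. The software was Python 3.11.15, numpy 2.4.6, pandas 2.3.3 and scipy 1.17.1.

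The members and lists were chosen with earlier results of these data known. Named were all called members, the most abundant member of each role, the other members by value, and in the second list the called genes whose interval bound lay farthest from equality, up to 5 higher and 10 lower; some of these are not reported here. Alternatives were 4 other scalings, a pseudocount of 5, no filter and a filter at 100, and a 1.5-fold threshold.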

Additional observations from a re-analysis of the deposited data

How the results depend on the processing

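No paired analysis was possible because each group had 1 library and the result comes from no test; no library could be left out. With a pseudocount of 5, no filter, TMM-style scaling or median-of-ratios scaling, the same 12 genes were lower and Mcm10 higher, and all 17 named genes kept their call. Scaling by total reads shifted ratios by -0.20: 15 members were lower, the medians of origin recognition and of the MCM helicase became -0.50 and -1.54, and 1 other replication gene was higher in place of 2. Of all measured genes 23.2% were then lower and 11.2% higher. The Krt8 and Krt18 scaling, known from earlier results of these data, gave 26 members lower and 0 higher, and a member median of -1.27. It also gave 45 other replication genes lower and 0 higher, beside 41.4% of all measured genes lower and 5.06% higher. Its role medians were -1.08 (origin recognition), -1.47 (loading), -2.12 (MCM helicase), -0.78 (helicase activation), -1.46 (polymerases), -1.51 (clamp and loader), -1.25 (Okazaki maturation), -1.29 (nucleotide supply) and -1.11 (regulators). These moves follow from the shift itself. A minimum mean of 100 kept 33 members, of which 10 were lower (without Orc1 and Gins3), with 1 other replication gene higher and a nucleotide supply median of -0.73, because fewer genes were tested. The share of all genes called at that minimum was not calculated. A threshold of 1.5-fold gave 19 members lower, and 32 other replication genes lower and 7 higher, beside 26.8% lower and 24.2% higher over all measured genes. Depth limits Gins3 and Orc1, whose intervals each span more than 1 on the log2 scale.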
